A study of Mus musculus with 8 samples.

Results

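The genes described here are 10 readouts and transducers of bone morphogenetic protein (BMP) signalling: Id1, Id2, Id3, Id4, Msx1, Msx2, Smad1, Smad5, Smad6 and Smad7. They were taken by symbol from a count table of 48526 mouse genes, and all 10 were found. Of these, 9 passed the filter on low values and were among the 9744 genes tested, and Id4 did not pass it. The table holds polyA RNA-seq counts of heart fields microdissected from 4 wild-type male C57bl6/J embryos at stage E8.5f, named L29-3, L43-5, L46-8 and L49-3. Each field was cut along the midline, so that every embryo gave 1 left and 1 right library, and no mutant or treated group entered the comparison. The authors removed heart tube and dorsal tissue from the piece, whose limits were the headfolds in front and somite 2 behind. It held progenitors of the second heart field together with neighbouring tissues.

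BMP ligands bind serine/threonine kinase receptors, which phosphorylate the receptor SMADs (SMAD1, SMAD5 and SMAD9), and these enter the nucleus with SMAD4. Direct targets include the Id genes, whose products bind E proteins and keep them from DNA, the homeobox genes Msx1 and Msx2, and Smad6 and Smad7, whose products inhibit the pathway in return. In the heart field, BMP signalling is known for promoting the differentiation of progenitors into myocardium.

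The libraries held between 1147446 and 3520753 counts, which the authors made after excluding duplicate reads. In bulk tissue, fewer cells of a type and less RNA per cell cannot be told apart. Lefty2, a target of NODAL on the left side, checked the side labels: it lay between 43.03 and 305 normalised counts in the left libraries and between 0 and 11.6 in the right ones. Cardiomyocyte markers were present, although the heart had been removed, and their summed level ran from 650 to 4404 on the left and from 1685 to 4463 on the right. None of the 9 listed markers was at 0 in every library, but Nppa, a marker of chamber myocardium, was at 0 in all libraries except the left one of L49-3. The sum of 10 second heart field markers ran from 865 to 1287 on the left and from 1118 to 1313 on the right. Neural tube markers were also present, although dorsal tissue had been removed. Their sum ran from 419 to 1039 on the left and from 566 to 1115 on the right.

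Sequence upstream of a transcription start is shown for 3 genes. They include Id2, the Id gene with the highest level, and Id4, the one below the filter. Smad6 is shown as the gene whose spread ranked highest against genes of like mean. The stretches are from RefSeq on GRCm38.p6, lie upstream of a RefSeq transcription start and overlap no annotated exon. For Id2 that start lies inside the gene as annotated (chr12:25093799-25097140). Its stretch is therefore within the gene, outside the exons, and not upstream of the whole gene. They span chr12:25096254-25096342 on the minus strand for Id2, chr13:48260866-48261115 on the plus strand for Id4 and chr9:64022060-64022309 on the minus strand for Smad6, each written 5′ to 3′. Capitals mark GGCGCC, the core of a known BMP response element, which reads the same on both strands.
Id2: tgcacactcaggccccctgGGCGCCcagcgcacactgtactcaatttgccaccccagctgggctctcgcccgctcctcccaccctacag
Id4: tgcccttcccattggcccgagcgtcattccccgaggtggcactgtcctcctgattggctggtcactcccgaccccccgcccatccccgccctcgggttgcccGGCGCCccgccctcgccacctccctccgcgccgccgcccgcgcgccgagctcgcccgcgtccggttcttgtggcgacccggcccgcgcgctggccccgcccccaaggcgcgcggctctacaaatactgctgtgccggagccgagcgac
Smad6: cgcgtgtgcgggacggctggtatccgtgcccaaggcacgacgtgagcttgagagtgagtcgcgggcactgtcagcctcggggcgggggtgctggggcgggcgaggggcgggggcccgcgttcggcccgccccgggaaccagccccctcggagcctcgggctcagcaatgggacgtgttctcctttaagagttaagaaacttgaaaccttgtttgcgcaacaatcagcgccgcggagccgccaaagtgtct
The motif started at position -231 from the transcription start in Id2 and at -148 in Id4. Windows of 300 bases around the start were searched for 8 of the 10 genes, Id1 and Smad7 not being among them. GGCGCC was in those of 3 genes (Id2, Id4 and Smad5) and not in those of the other 5 (Id3, Msx1, Msx2, Smad1 and Smad6), which says only that these letters were not there. Over all RefSeq windows of 300 bases, 11.9% held it. That is a share of windows, whereas the 3 and 5 count genes, and the 8 genes had 10 windows.

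Whether the BMP readouts differed between the left and right heart field was the first comparison. None of the 9 tested genes did by the criteria of the study, which ask for a difference of 1.2-fold or more and for p no greater than 0.05 before adjustment (edgeR's quasi-likelihood F test, blocked by embryo). With edgeR alone, these criteria called 3.05% of all tested genes, whereas the study listed genes that met them by limma-voom, DESeq2 or edgeR. None of the 9 had an unadjusted p under 0.05 by edgeR, DESeq2 or limma-voom, and none passed an adjusted p of 0.05, which 0.0103% of the tested genes did. The fitted log2 ratios of left to right ran from -0.26 for Smad7 to 0.14 for Smad5. Their median was -0.08, with 2 genes above 0 and 7 below, against a median of -0.004 over all tested genes. The adjusted p of each of the 9 lay between 0.987 and 0.990 (edgeR, Benjamini-Hochberg). Below, the DESeq2-normalised counts of a gene are given in the order L29-3, L43-5, L46-8 and L49-3, and means are over 4 embryos with the SD. Log2 ratios and 95% intervals are edgeR estimates unless an embryo is named. The log2 ratio of a gene in a single embryo is taken from CPM (counts scaled to library size, here with the TMM scaling of edgeR). For it, 0.5 was added to the CPM of each side.

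**Figure D1:**
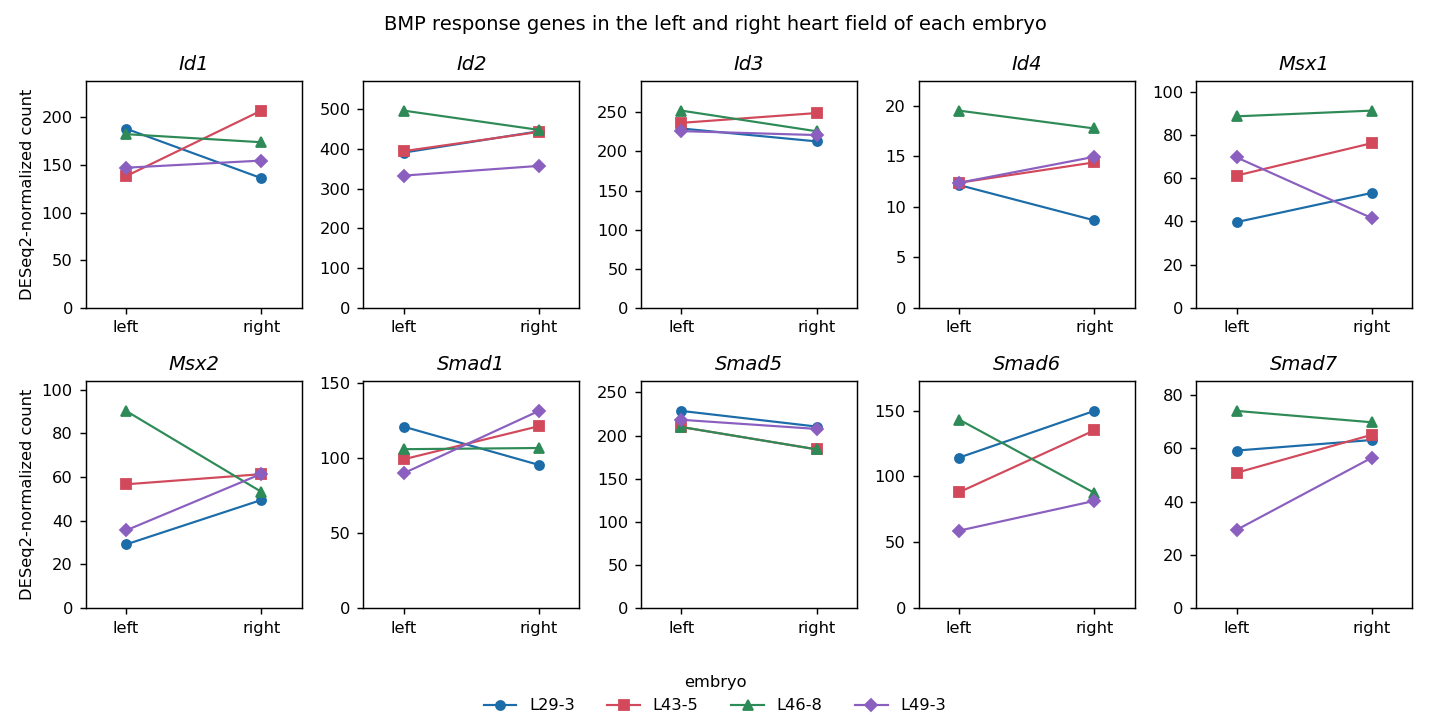
DESeq2-normalised counts (y axis, from 0, with its own scale for each gene) of the 10 genes in the left and right library of each embryo (x axis). A line joins both sides of an embryo, and Smad5 is the one tested gene whose 4 lines slope the same way.

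Among the Id genes, Id1 (chr2:152736251-152737410, plus strand) had 188, 138, 182 and 147 normalised counts in the left libraries, against 136, 207, 174 and 155 in the right. The sides overlapped, with L29-3 higher on the left and L43-5 higher on the right by a similar amount. Its means were 164 ± 24.9 on the left and 168 ± 30.3 on the right, a log2 ratio of -0.06 with a standard error of 0.146 and an interval from -0.38 to 0.26.

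Id2 (chr12:25093799-25097140, minus strand) had 391, 394, 496 and 333 normalised counts in the left libraries, against 444, 443, 448 and 357 in the right. It was higher on the right in 3 embryos and higher on the left in L46-8, and L49-3 was lowest on both sides. The log2 ratio was -0.08 with a standard error of 0.0766, from means of 404 ± 68.0 and 423 ± 43.9. Its 95% interval, from -0.25 to 0.09, was the narrowest of the 9 and corresponds to a left to right fold between 0.843 and 1.06.

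Id3 (chr4:136143497-136145755, plus strand) varied least, with 229, 237, 252 and 226 in the left libraries, against 213, 249, 226 and 221 in the right. All 8 libraries lay close together and the sides overlapped. The means were 236 ± 11.7 and 227 ± 15.6, and the log2 ratio was 0.05 with an interval from -0.13 to 0.23.

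Id4 (chr13:48261228-48266026, plus strand) was near the limit of this depth, with 7 to 27 reads a library and 123 in all. Its normalised counts were 12.2, 12.4, 19.5 and 12.4 in the left libraries, against 8.67, 14.4, 17.8 and 15.0 in the right, and both sides of L46-8 stood above the other embryos. In a fit without a filter on low values (23873 genes), its log2 ratio was 0.03 with an interval from -0.62 to 0.68, so a difference of 1.5-fold was not detectable. Its exons overlap those of 2 other annotated genes, both on the opposite strand, and reads from these cannot be told apart where the strand setting of the counting is unknown.

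The homeobox targets differed more between libraries. Msx1 (chr5:37820485-37824583, minus strand), which is expressed in many BMP-exposed tissues, had 39.7, 61.3, 88.7 and 69.7 in the left libraries, against 53.2, 76.3, 91.4 and 41.5 in the right. It was higher on the right in 3 embryos, while L49-3 ran the other way with a log2 ratio of 0.72. The fitted log2 ratio was -0.08 with a standard error of 0.180 and an interval from -0.47 to 0.32, from means of 64.8 ± 20.3 and 65.6 ± 22.4.

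Msx2 (chr13:53466884-53473074, minus strand), its paralog, had 29.2, 56.7, 90.3 and 35.6 in the left libraries, against 49.5, 61.4, 53.3 and 61.5 in the right. The left libraries spread from below all right libraries to above them, with a mean of 53.0 ± 27.6 against 56.4 ± 5.99. The log2 ratio was -0.74 in L29-3 and -0.78 in L49-3, but 0.74 in L46-8. Fitted over the 4 embryos it was -0.13 with an interval from -0.64 to 0.38, the widest of the 9. Its transcripts share a stretch of at least 100 bases, at 90% identity or more, with those of 39 other genes, and reads from there are uncertain.

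The receptor SMADs carry the signal from the receptors. Smad1 (chr8:79338395-79399518, minus strand) had 121, 99.1, 106 and 89.8 in the left libraries, against 95.3, 121, 107 and 131 in the right. The sides overlapped, and the log2 ratio was -0.12 with a standard error of 0.143 and an interval from -0.43 to 0.19, from means of 104 ± 13.0 and 114 ± 15.8.

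Smad5 (chr13:56703010-56742377, plus strand) had 229, 210, 210 and 218 in the left libraries, against 210, 184, 184 and 208 in the right. It was the only one of the 9 that lay on the same side of 0 in all 4 embryos, as 12.4% of all tested genes did. The sides still overlapped by less than 1 count, at the right library of L29-3. The log2 ratio was 0.14 with a standard error of 0.0832 and an interval from -0.04 to 0.33, from means of 217 ± 8.86 and 197 ± 14.5. An exact sign-flip test over the 4 embryos, two-sided, gave p = 0.125, the smallest that 4 pairs can give.

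The inhibitory SMADs had the most negative fitted values with all 4 embryos in the fit. Smad6 (chr9:63953076-64022059, minus strand), which blocks BMP-type signalling, had 114, 88.0, 143 and 58.8 in the left libraries, against 150, 135, 87.6 and 81.4 in the right. The log2 ratio was -0.38, -0.61 and -0.47 in 3 embryos, while L46-8 had more on the left, at 0.70. The fitted log2 ratio was -0.20 with an interval from -0.61 to 0.22, from means of 101 ± 36.1 and 113 ± 34.1.

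Smad7 (chr18:75367529-75395935, plus strand), which blocks both BMP and activin or NODAL signalling, had 59.2, 50.9, 74.1 and 29.4 in the left libraries, against 63.1, 65.1, 69.8 and 56.5 in the right. The left library of L49-3 lay lowest and that of L46-8 highest. The means were 53.4 ± 18.6 and 63.6 ± 5.51, and the log2 ratio was -0.26 with a standard error of 0.176. Its interval, from -0.64 to 0.13, takes in a fold as low as 0.641.

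**Figure D2:**
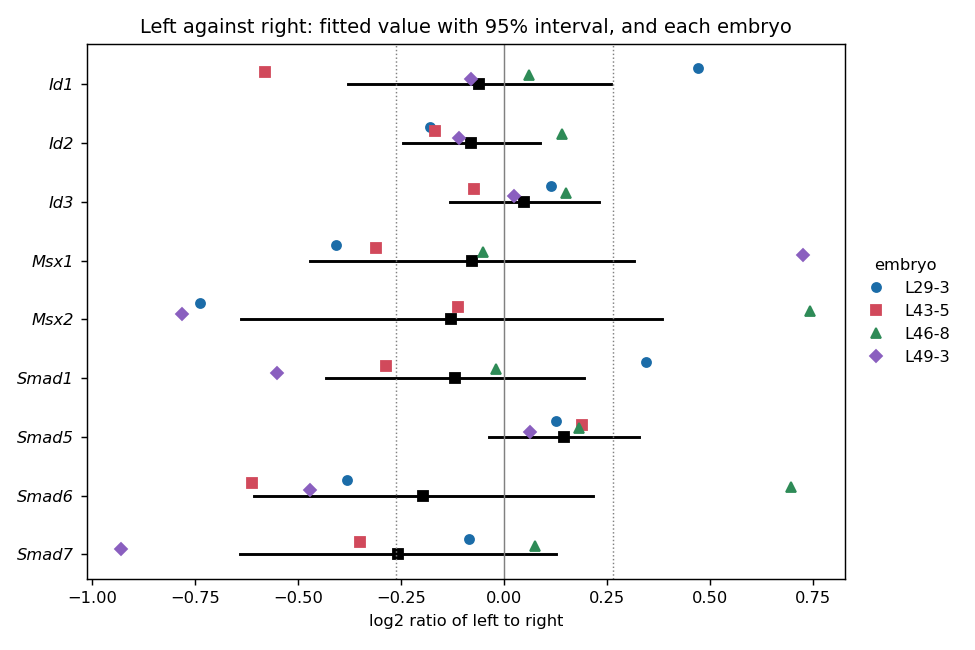
Log2 ratio of left to right (x axis) of the 9 tested genes (y axis). Black squares are edgeR estimates with 95% intervals, and dotted lines mark a fold of 1.2. Coloured points are the ratios of TMM-normalised CPM in each embryo, with 0.5 added to each side. All 9 intervals include 0, and those of Id2 and Id3 lie between the dotted lines.

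Msx2 and Smad6 were the 2 genes for which 1 embryo decided the call. Without L46-8, both met the criteria of the study, where 3.89% of all tested genes did: Smad6 with a log2 ratio of -0.50 and Msx2 with -0.47. Neither passed correction, with adjusted p of 0.804 and 0.997 (edgeR, Benjamini-Hochberg). With any other embryo left out none of the 9 met the criteria, and the log2 ratio of Smad6 was -0.0056 without L43-5. Marker lists of other tissues and cells stand beside these ratios. The cardiomyocyte marker sum had left to right log2 ratios of -0.02, -0.57, 0.72 and -1.61 in the same order of embryos, and 8 of its 9 genes were tested, all with fitted values below 0 and none past the criteria. The second heart field marker sum had 0.02, -0.53, 0.20 and -0.33. Of the neural tube markers, 8 of 9 were tested, all 8 had fitted values below 0 and 2 met the criteria. With all 4 embryos in the fit, 3.05% of all tested genes met them. The neural tube marker sum had 0.33, -0.93, -0.58 and -0.10. The part of these lists in the Smad6 and Msx2 values was not tested.

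**Figure D3:**
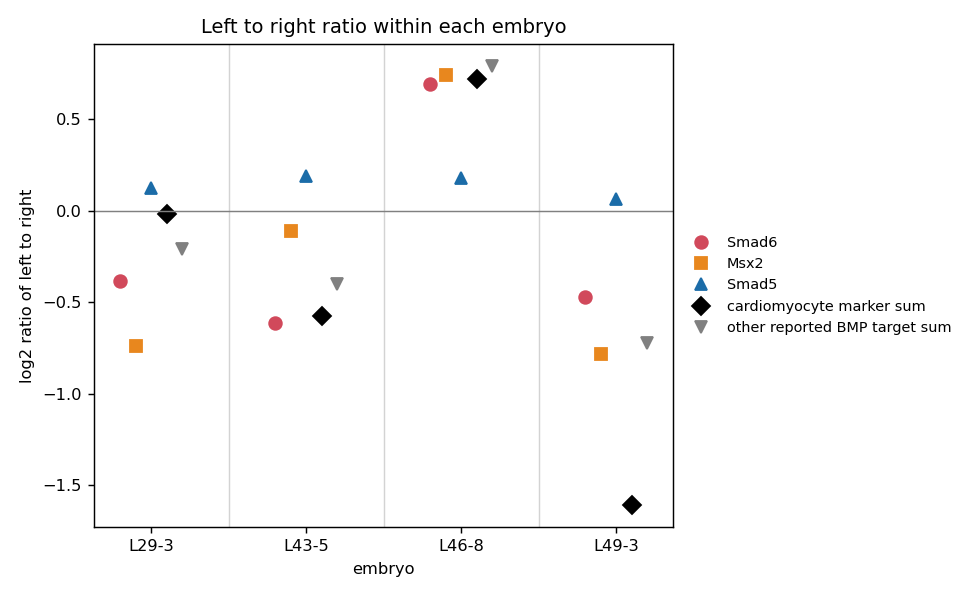
Log2 ratio of left to right (y axis) in each embryo (x axis) for Smad6, Msx2 and Smad5, for the summed DESeq2-normalised counts of 9 cardiomyocyte markers and for those of 16 other reported BMP targets. L46-8 is the embryo in which Smad6, Msx2 and both sums lie above 0, and the points of Smad5 lie above 0 in all 4 embryos.

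Differences between embryos, with the side in the model, were the other comparison the design allowed. Of the 9 genes, 2 had an unadjusted p of at most 0.05, Id2 and Msx1, and 9.99% of all tested genes did. None had an adjusted p under 0.05, which 0.174% of the tested genes reached, and by DESeq2 none of the 9 had an unadjusted p of at most 0.05. Id2 had embryo means of 418, 419, 472 and 345 normalised counts, 1.37-fold from the lowest to the highest (edgeR, adjusted p = 0.310 by Benjamini-Hochberg). L49-3 lay lowest, and without it the unadjusted p was no longer under 0.05. Msx1 had means of 46.5, 68.8, 90.04 and 55.6, 1.94-fold from L29-3 to L46-8 (edgeR, adjusted p = 0.320 by Benjamini-Hochberg). Its unadjusted p was no longer under 0.05 without L29-3 or without L46-8.

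The inhibitory SMADs were lowest in L49-3. Smad6 had embryo means of 132, 112, 115 and 70.1 (edgeR, adjusted p = 0.501 by Benjamini-Hochberg), a 1.88-fold range. Smad7 had 61.2, 58.0, 71.9 and 42.96 (edgeR, adjusted p = 0.583 by Benjamini-Hochberg). L49-3 was also the embryo with the fewest counts, and its cardiomyocyte marker sum, 650 on the left and 1979 on the right, included the lowest value of the 8 libraries. Of the 8 tested cardiomyocyte markers, 7 had an unadjusted p of at most 0.05 between embryos, against 9.99% of all tested genes. Other lists also set L49-3 apart: the neural tube sum was 1039 (left) and 1115 (right), against 419 to 800 in the other libraries, and the juxta-cardiac field sum was 133 and 111, against 299 to 527. Of these markers, 6 of 8 and 3 of 4 had such a p. The part of these differences in the SMAD values was not tested. At the other end, Smad1 had means of 108, 110, 106 and 111, a 1.04-fold range (edgeR, adjusted p = 0.999 by Benjamini-Hochberg).

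The spread over the 8 libraries separated the genes further. The coefficient of variation was 5.86% for Id3, less than the 6.84% that counting error alone would give, and 7.49% for Smad5 against 7.18%. Smad6 had 30.9% against 10.8%, Msx2 33.9% against 14.8% and Msx1 30.4% against 13.5%. Since the spread falls with the mean, each gene was set beside the tested genes of like mean (within 0.5 on the log2 scale). Of these, 96.4% varied less than Smad6, 94.3% less than Msx2, 93.2% less than Msx1 and 86.3% less than Id2. By contrast, 20.2% varied less than Smad5 and 9.64% less than Id3. For Smad1 the share was 52.5%, for Id1 82.8% and for Smad7 82.0%.

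**Figure D4:**
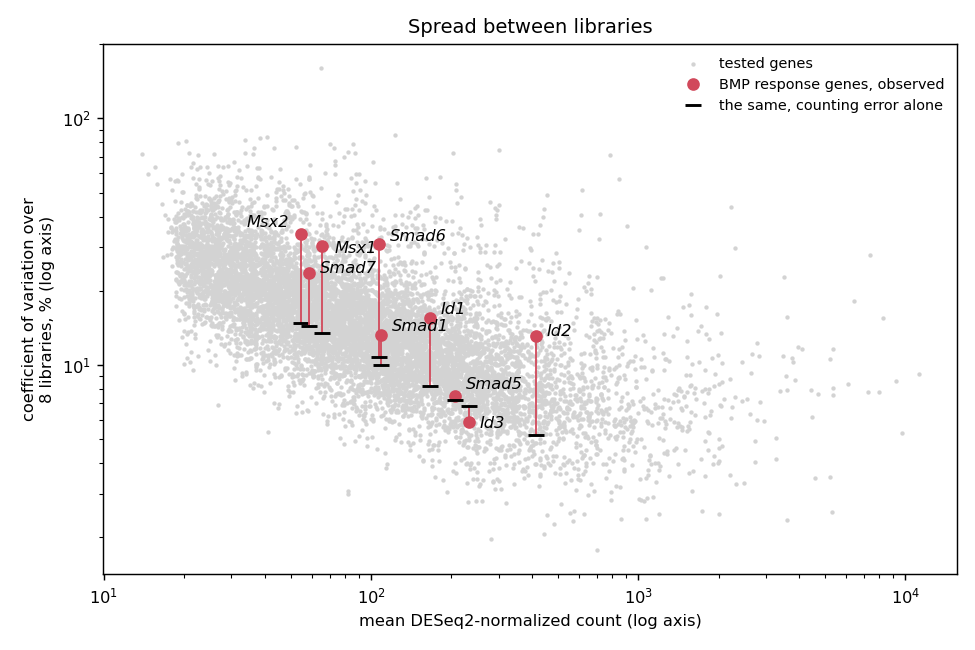
Coefficient of variation over the 8 libraries (y axis, percent, log axis) against mean DESeq2-normalised count (x axis, log axis). Grey points are the 9744 tested genes, red points are the 9 tested BMP response genes, and a black bar joined to each marks the variation from counting error alone. Smad6, Msx2 and Msx1 stand high in the cloud and Id3 lies under its bar.

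Levels were compared between genes only per length, as CPM (counts scaled to library size, here with the TMM scaling of edgeR) for each kilobase of exon (mean of 8 libraries, SD over 4 embryos). The Id genes came first, with 91.7 ± 11.5 for Id2, 77.4 ± 5.53 for Id1 and 70.0 ± 3.21 for Id3, and each was above the next in all 4 embryos. Smad6 followed with 18.1 ± 4.43 and Smad5 with 15.1 ± 0.851, a gap smaller than the spread of Smad6. Msx1 had 11.4 ± 3.30, Smad1 9.39 ± 0.175, Msx2 9.02 ± 2.29 and Smad7 6.999 ± 1.43. The neighbours Msx1 and Smad1, Smad1 and Msx2, and Msx2 and Smad7 did not differ beyond their spread. Id4 was lowest, with 1.97 ± 0.479, below Smad7 in all 4 embryos. Part of the order depended on the length used: with the longest transcript in place of all exons, Id3 came to 98.0 and passed Id1, and Msx1 came to 18.2 and passed Smad5 at 17.0.

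**Figure D5:**
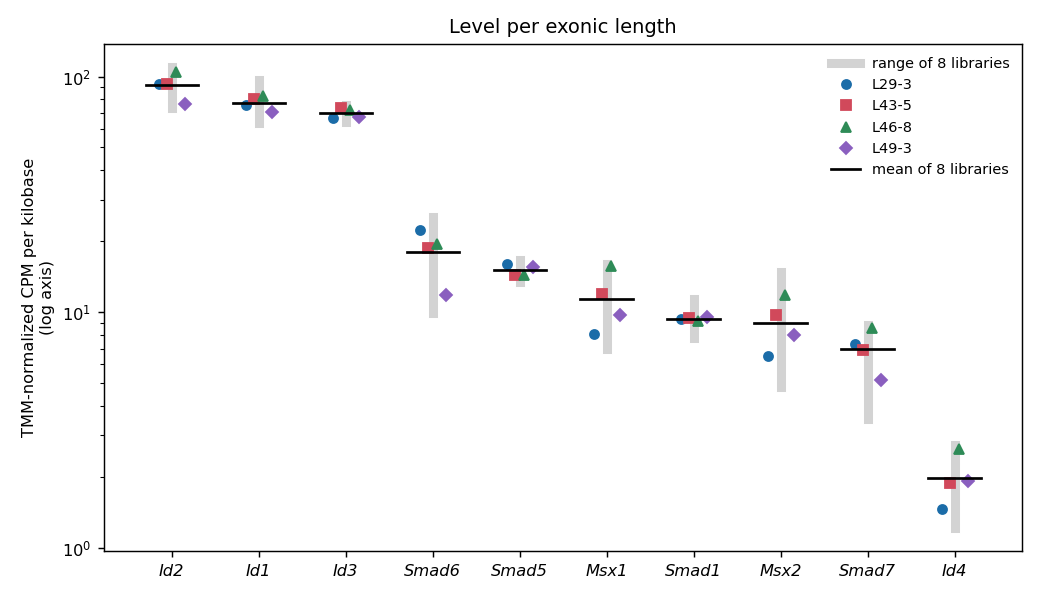
TMM-normalised CPM per kilobase of exon (y axis, log axis) of the 10 genes, ordered by level (x axis). Coloured points are embryo means, grey bars the range of the 8 libraries and black lines their mean. Id1, Id2 and Id3 lie above the 7 others, and Id4 lies lowest.

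Across the 8 libraries, the mean profile of Id1, Id2 and Id3 was most like those of Kif7, a kinesin of the Hedgehog pathway (Pearson's r = 0.940), Pigu (0.939) and Ociad1 (0.936), among 9735 genes. These are the highest values of that search, over only 8 libraries. The Id genes correlated less with each other: r was 0.41 for Id1 and Id2, 0.43 for Id2 and Id3 and 0.66 for Id1 and Id3. Between the genes themselves, r was 0.85 for Id2 and Smad7, 0.82 for Id2 and Smad6 and 0.78 for Smad6 and Smad7, and -0.65 for Msx1 and Smad5. These values are descriptions, since the libraries are pairs from 4 embryos and share the differences between embryos given above.

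The wider pathway was read from 67 listed symbols, of which 66 were found in the table and 47 were tested. The symbol not found was Znf423, the human name of Zfp423, which the list also holds. Of the 47, 26 had a fitted value above 0 and 21 below, with a median log2 ratio of 0.02. The criteria of the study were met by 2, both higher on the left, against 3.05% of all tested genes. Fst encodes follistatin, an extracellular antagonist of activin and some BMPs, and averaged 193 ± 44.2 on the left against 149 ± 13.3, higher on the left in 3 of 4 embryos (log2 ratio 0.34, standard error 0.122). Skil encodes a co-repressor of SMADs and had 80.4 ± 14.7 and 59.8 ± 9.64, higher on the left in 4 of 4 embryos (log2 ratio 0.41, standard error 0.146). Both had an adjusted p of 0.987 (edgeR, Benjamini-Hochberg).

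By role, none of 4 tested ligands, 9 receptors and co-receptors or 3 E proteins met the criteria. Bmp7, a ligand, had a log2 ratio of -0.16, and Bmpr1a, a type I receptor, had 0.03. Smad4, the common partner of the receptor SMADs, had -0.02. Fstl1, a secreted relative of follistatin, had 0.18, the cardiac factor Gata6 had -0.20 and the E protein gene Tcf3 had -0.10, and none of these met the criteria. None of 12 tested genes among the other reported BMP targets met the criteria, and their median log2 ratio was -0.13. Their summed level had log2 ratios of -0.21, -0.40, 0.79 and -0.72 in the order of embryos above. Id2, Msx2, Smad6, Smad7 and the cardiomyocyte marker sum had the same signs in the 4 embryos, whereas Id1, Id3, Msx1, Smad1 and Smad5 did not. Some of the matching values were near 0, as for the cardiomyocyte sum (-0.02) and Smad7 (-0.09) in L29-3. The share of all tested genes with these signs was not counted. The list itself holds cardiac genes such as Gata4, Tbx20, Nkx2-5 and Hand1, and the part of cardiac cells in these values was not tested. Of the 12 tested genes of this list, 5 had an unadjusted p of at most 0.05 between embryos, with none adjusted. Of all tested genes, 9.99% had such an unadjusted p. Gata4, a cardiac transcription factor, was at 20.1 on the left and 71.5 on the right of L49-3, and between 173 and 335 in the other 6 libraries.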

How the data were processed

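RNA of 8 libraries (left and right of 4 embryos) was compared. The authors deposited raw counts per gene: per the labels, polyA libraries gave paired-end reads, which were aligned with HISAT2 to GRCm38 and counted with featureCounts, duplicate reads (most of the reads) were excluded, and limma 3.40.6 is among the tools in the submitters' processing notes. The strand setting is not given in the sources used here. Genes with at least 20 DESeq2-normalised counts in at least 4 libraries were tested with edgeR 4.0.16 (R 4.3.3; quasi-likelihood, TMM, embryo and side as terms), with 95% intervals and Benjamini-Hochberg adjustment. Levels were set on GENCODE vM21 exons. Alternatives used DESeq2 1.42.0, limma 3.58.1, other scalings and filters, and leaving out each embryo. Members, lists and the named genes (all members, list genes past the criteria, the gene of each role with the highest mean count, not corrected for length, and the nearest profiles) were chosen with earlier results of these data known. Gata4 was chosen after its values were seen. Both sides of an embryo share an animal, which pairs the samples. The deviations of the sides correlated at 0.165, 0.190, -0.016 and 0.437 in the 4 embryos. For pairs of different embryos the values ran from -0.389 to 0.255, and only L49-3 lay above that range. Counts range from 1147446 to 3520753 a library, and a count of 3 is the limit a 0 allows, which covers counting error only.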

Additional observations from a re-analysis of the deposited data

Results flagged for a closer look

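In 20 groups of 4 libraries (10 genes on each side), 2 had a library far from the other 3 by Dixon's test, which chance alone does in about 1 group in 20. Id2 on the right was at 357 normalised counts in L49-3, with the other 3 embryos between 443 and 448. Id4 on the left was at 19.5 normalised counts in L46-8, from 24 reads, with the other 3 embryos between 12.2 and 12.4.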

How the results depend on the processing

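Of the 9 tested BMP response genes, 0 met the study's criteria under every alternative except leaving out 1 embryo, where the count ranged from 0 to 2 (Msx2 and Smad6 without L46-8). Without the block for the embryo (no pairing), 0 of the 9 did, and over all genes 0 passed an adjusted p of 0.05 (edgeR), with 320 at an unadjusted p of at most 0.05. The log2 ratio changed sign in 3 genes when 1 embryo was left out: Id1 ranged from -0.23 to 0.17, Msx1 from -0.25 to 0.038 (0.01 without L29-3) and Msx2 from -0.47 to 0.040 (0.01 without L49-3). Over all tested genes, the 297 past the study's criteria became 687 without a filter on low values (edgeR, over 23873 genes) and 59 with DESeq2. The 1 gene with an adjusted p under 0.05 became 34 without a filter, 0 with at least 10 counts in every library (432 unadjusted), 2 with DESeq2, and 1 to 5 with an embryo left out (4 without L29-3, 5 without L46-8, 2 without L49-3). Between embryos, 17 genes became 641 without a filter, 9 with at least 10 counts in every library, 48 with DESeq2, and 0 to 236 with an embryo left out: 46 without L29-3, 33 without L43-5, 236 without L46-8 and 0 without L49-3 (426 unadjusted). Without a filter, Id2, Msx1 and Smad6 passed an adjusted p of 0.05 between embryos (0.0434, 0.0190 and 0.00934; edgeR, Benjamini-Hochberg). The cause of these changes was not tested. Depth limits Id4 most, and 4 embryos limit all intervals.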
